A study of Mus musculus with 12 samples.

Results

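The genes described here are 38 mouse genes of glycolysis and the hypoxia response, chosen by name: 16 glycolytic enzymes, 2 glucose transporters, 2 enzymes that set fructose 2,6-bisphosphate, 3 genes of pyruvate and lactate fate, Hif1a, 12 targets of hypoxia-inducible factor (HIF) outside glycolysis, and the glucose-sensing pair Txnip and Arrdc4. All 38 were found among the 55401 genes of a count table of RNA from mouse Th17 cells, a class of helper T cell named for the cytokine IL-17, and all 38 passed the filter on low counts. Naive T cells of wild-type lymph nodes had been differentiated to Th17 cells. They were then left with no inhibitor (None) or cultured for 4 h with Kira8, with Stattic, or with Kira8 and Stattic together (Kira8+Stattic). The labels give no such time for None. Kira8 inhibits IRE1alpha, a sensor of endoplasmic reticulum stress, and Stattic inhibits the transcription factor STAT3. Each group had 3 libraries. The labels do not give the inhibitor doses, whether None received a solvent, or whether the libraries of a group came from separate cultures or animals, so a p-value here speaks only of the scatter among these libraries, and that scatter may be technical.

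Glycolysis turns glucose into pyruvate, and T cells that divide and make cytokines are known for running it at a high rate and exporting the lactate made from pyruvate. HIF-1, a dimer of HIF-1alpha (encoded by Hif1a) and ARNT, is held down in normal oxygen by prolyl hydroxylases of the EGLN family, and it switches on most genes of glycolysis together with genes of mitophagy, collagen modification and vessel growth. HIF-1alpha is known to support Th17 differentiation. Txnip and Arrdc4 follow another sensor, the MondoA-MLX dimer, which responds to glucose 6-phosphate, and their proteins limit glucose uptake.

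The results below rest on 10 of the 12 libraries, with 51669791 to 85890966 counts each. Kira8 replicate 2 (19813462 counts) and Stattic replicate 2 (9275672 counts) stood apart. Mitochondrial genes took 61.5% and 10.7% of their counts, against 3.38 to 5.22% in the other 10, and their rank correlation with the other 10 across genes ran from 0.53 to 0.57, against 0.89 to 0.98 among those 10. Bnip3, Ankrd37 and Arrdc4 had 0 counts in both of these libraries. By sampling alone that allows up to 3 counts each, or 0.151 and 0.323 per 1000000 counts of the unscaled library. Since both libraries stood apart from the rest, a 0 there may not bound the level in the cells. Levels are given as CPM, counts per 1000000 counts of the scaled library. Counts of calls with all 12 libraries are given for each comparison. Il17a, the gene that defines Th17 cells, was present in all 10, at 247 to 1394 CPM in None and 134 to 180.4 CPM in the other groups.

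Cell type markers moved with the groups. The summed level of 12 B cell markers was 337 to 420 CPM in None, 177 to 208 CPM in Kira8, 74.9 to 141 CPM in Stattic and 76.3 to 141 CPM in Kira8+Stattic. For 10 markers of CD8 T and NK cells the sums were 1179 to 2027, 187 to 208, 594 to 750 and 223 to 342 CPM in the same order. In None, Gzmb alone gave 744 to 1368 CPM of that sum and Cd8a gave 80.2 to 150 CPM. By edgeR 0 B cell markers rose in the comparisons against None, and 6, 11 and 10 of 12 fell with Kira8, Stattic and Kira8+Stattic. Of the 9 CD8 T and NK markers tested 8, 4 and 7 fell. Of 12 Th17 and CD4 markers 1, 3 and 2 rose and 4, 6 and 6 fell. Over all genes 9.7%, 20.1% and 20.8% rose and 9.59%, 18.9% and 20% fell in the same 3 comparisons. Summed myeloid markers ran from 24.3 to 112 CPM and stromal and endothelial ones from 45.8 to 88 CPM over the 10 libraries. No marker was at 0 in all 10. In RNA from a whole culture, fewer cells of a type and less RNA per cell cannot be told apart, and the part of other cell types in the results below was not tested.

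The promoter sequences of 4 members are shown because their genes differ in how they responded and because they carry the letters that HIF-1 and MondoA-MLX are known to read. They are the 250 bases before the start, 5′ to 3′ on the gene's strand, from RefSeq on GRCm38.p6. Txnip (chr3:96557707-96557956, plus strand) and Arrdc4 (chr7:68749239-68749488, minus strand) are the glucose-sensing pair, Bnip3 (chr7:138909507-138909756, minus strand) is a HIF target outside glycolysis, and Ldha (chr7:46845554-46845803, plus strand) is a glycolytic enzyme. Capitals mark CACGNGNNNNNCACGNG in Txnip, CACGTG in Arrdc4, and ACGTG or GCGTG on either strand in Bnip3 and Ldha, where neighbouring matches run together. CACGTG also occurs in the printed Bnip3 and Ldha sequences. Txnip and Arrdc4 also hold GCGTG outside the capitals, so the marking does not set the promoters apart.
Txnip: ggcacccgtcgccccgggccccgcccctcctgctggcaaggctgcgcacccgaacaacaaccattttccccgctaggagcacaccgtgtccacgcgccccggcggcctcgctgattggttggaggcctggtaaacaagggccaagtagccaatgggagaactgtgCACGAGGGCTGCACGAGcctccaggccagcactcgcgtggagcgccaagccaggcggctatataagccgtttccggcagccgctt
Arrdc4: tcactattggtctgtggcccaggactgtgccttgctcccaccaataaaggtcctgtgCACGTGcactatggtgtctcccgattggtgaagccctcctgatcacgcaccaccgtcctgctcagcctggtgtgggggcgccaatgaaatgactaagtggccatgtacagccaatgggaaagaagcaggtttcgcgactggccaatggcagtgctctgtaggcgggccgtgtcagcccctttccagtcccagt
Bnip3: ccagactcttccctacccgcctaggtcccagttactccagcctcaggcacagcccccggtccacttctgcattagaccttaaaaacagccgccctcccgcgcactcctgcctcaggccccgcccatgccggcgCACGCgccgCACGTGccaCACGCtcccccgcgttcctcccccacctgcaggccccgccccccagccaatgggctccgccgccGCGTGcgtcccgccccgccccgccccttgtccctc
Ldha: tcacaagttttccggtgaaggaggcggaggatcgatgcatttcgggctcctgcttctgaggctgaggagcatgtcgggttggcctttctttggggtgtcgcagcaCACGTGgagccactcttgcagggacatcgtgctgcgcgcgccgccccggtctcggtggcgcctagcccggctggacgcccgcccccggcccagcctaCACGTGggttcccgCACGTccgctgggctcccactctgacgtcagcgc
The Txnip match began at -85 from the start and the Arrdc4 match at -193. Bnip3 and Ldha held 5 matches each, with each CACGTG counted on both strands. A second Ldha window (chr7:46846832-46847081, plus strand) held 1 match and is not printed.

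Windows of 250 bases before to 50 after a start were found for 35 of the 38 members, 51 windows in all. ACGTG or GCGTG, searched on both strands, occurred in 78.4% of the members' windows and in 43.8% of all 32851 windows of the same length. The members' windows were richer in G and C, with a median of 62.3% against 52.7%. CACGTG, which overlaps ACGTG, occurred in 13.7% against 7.15%. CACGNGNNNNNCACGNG occurred in 16 of all 32851 windows (0.0487%), and among the members in the Txnip window. These matches describe letters, not bound sites.

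Under Stattic most of the 38 genes rose, whereas under Kira8 they divided, with 9 higher (9.7% of all genes), 6 lower (9.59%) and 23 not called. A gene was called when the Benjamini-Hochberg adjusted p of edgeR's quasi-likelihood test was under 0.05 over all 21239 genes tested, and for Kira8 19.3% of all genes were called. The median log2 change of the 38 under Kira8 was -0.08, against 0 over all genes. Without Kira8 replicate 3 the Kira8 count was 4 higher. With Stattic 26 were higher (20.1% of all genes), 3 were lower (18.9%) and 9 were not called, with 39% of all genes called, and the median log2 change was 0.78 against 0.08 over all genes. With Kira8+Stattic 24 were higher (20.8% of all genes) and 3 lower (20%), with 40.8% of all genes called, and the median was 0.75 against 0.09 over all genes. These 3 comparisons share the None libraries, so their values stand side by side and are not independent. The groups did not overlap for 26 of the 38 genes under Kira8 (47.8% of all genes), for 34 under Stattic (58.3%) and for 31 under Kira8+Stattic (54.1%).

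**Figure D1:**
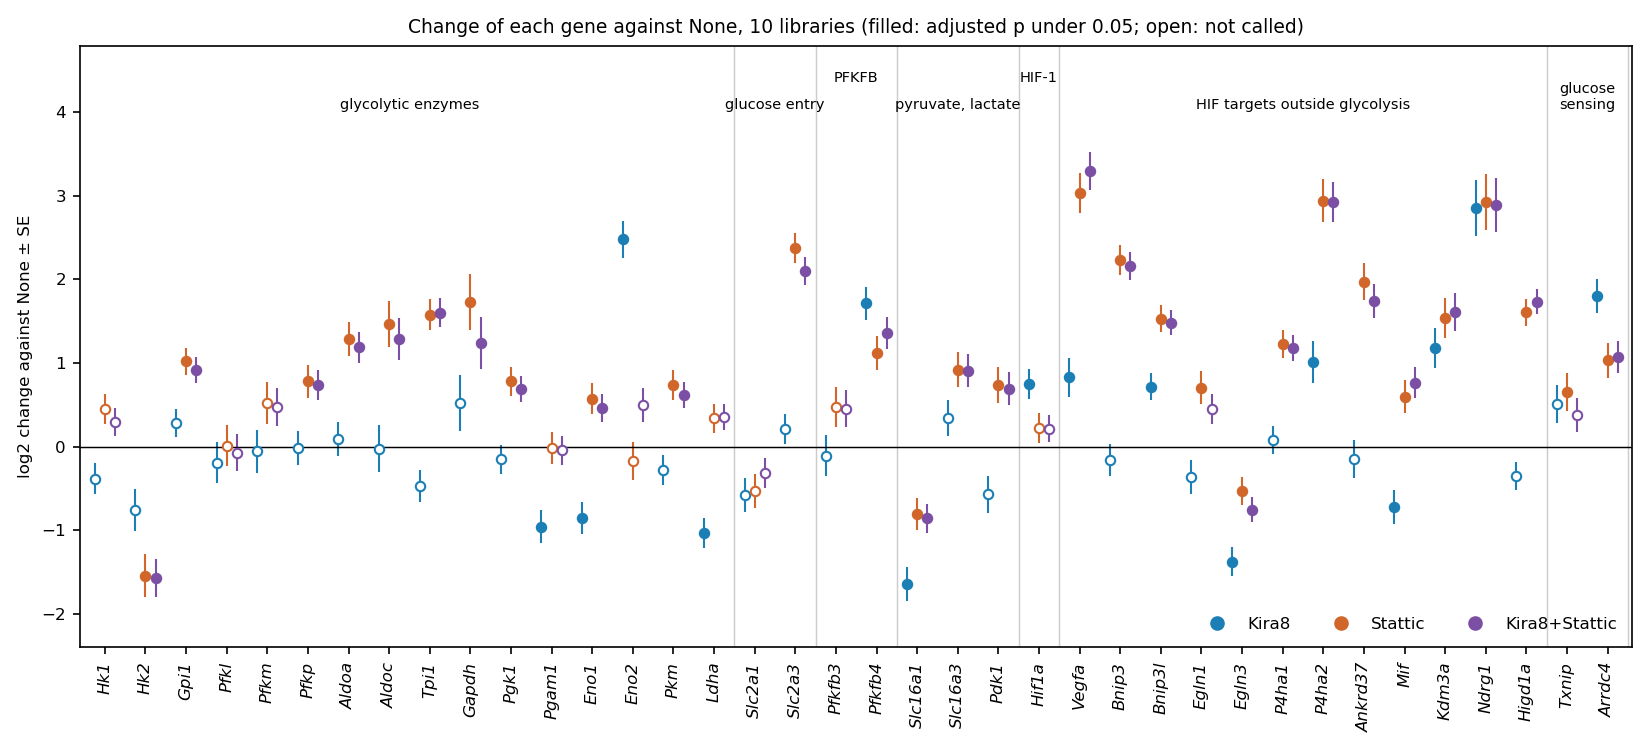
The log2 change of each of the 38 genes against None (vertical axis) with its standard error, for Kira8 (blue), Stattic (orange) and Kira8+Stattic (purple), with genes ordered by role. Filled points passed an adjusted p of 0.05 and open points did not; the orange and purple points of the HIF targets lie above 0 except for Egln3, and the blue points lie on both sides of 0.

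With all 12 libraries the same edgeR test called none of the 38 genes in any comparison. It called 0 genes of 20993 for Kira8 (2689 genes and 7 members at an unadjusted p under 0.05), 65 for Stattic (0.31%) and 57 for Kira8+Stattic (0.272%). With library quality weights in limma voom, which weigh down libraries far from their group, all 12 libraries gave 8 members higher and 9 lower for Kira8 (22.3% of genes called), 23 and 3 for Stattic (37.1%) and 24 and 3 for Kira8+Stattic (47.4%). DESeq2 on all 12 gave 2 and 4, 13 and 1, and 10 and 1, with 9.05%, 14.5% and 8.5% of genes called. For Stattic against None the 12-library edgeR changes were 2.50 ± 0.77 (SE) for Vegfa, 2.51 ± 0.66 for Ndrg1, 1.85 ± 0.68 for Slc2a3 and -1.99 ± 0.53 for Hk2, with adjusted p of 0.16, 0.131, 0.203 and 0.131. For Kira8 they were 1.93 ± 1.00 for Eno2, -1.47 ± 0.66 for Ldha and 1.21 ± 1.60 for Arrdc4, with adjusted p of 0.426, 0.387 and 0.826.

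Glucose enters T cells through GLUT1 (Slc2a1) and GLUT3 (Slc2a3), of which Slc2a3 was called with Stattic. Slc2a3 (mm10 chr6:122727809-122801640) stood at 70.5, 79.9 and 74.4 CPM in None, 77 and 95.9 CPM in Kira8, 425 and 355 CPM in Stattic, and 373, 265 and 327 CPM in Kira8+Stattic. Every library with Stattic lay above every library without it. The log2 change was 2.38 ± 0.18 (SE) with Stattic (adjusted p = 3.72e-06, edgeR) and 2.10 ± 0.17 with Kira8+Stattic (adjusted p = 2.72e-06), a 5.2-fold and a 4.29-fold higher level. Slc2a1 stood at 104, 118 and 96.3 CPM in None, 54.5 and 88 CPM in Kira8, 66.9 and 80.4 CPM in Stattic, and 87.9, 77 and 91.9 CPM in Kira8+Stattic. All 7 libraries with an inhibitor lay below the lowest None library, but the changes of -0.58 ± 0.20, -0.53 ± 0.20 and -0.31 ± 0.18 did not pass the test (adjusted p = 0.0686, 0.0575 and 0.188, edgeR). Per kilobase of exon, the Slc2a3 level was 0.327 to 0.374 of the Slc2a1 level in None, 0.527 and 0.683 of it in Kira8, and 1.66 to 3.08 times it in the libraries with Stattic.

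Hexokinase 2, which traps glucose in the cell as glucose 6-phosphate, was the 1 enzyme called lower with Stattic. Hk2 (mm10 chr6:82725025-82774454) stood at 139, 255 and 195 CPM in None, 98.3 and 134 CPM in Kira8, 63.6 and 71.2 CPM in Stattic, and 80.2, 58.3 and 59.5 CPM in Kira8+Stattic. None was the highest group, Kira8 lay between, and the libraries with Stattic were the lowest, with no overlap. Hk2 fell by 1.54 ± 0.26 on the log2 scale with Stattic (2.91-fold lower, adjusted p = 0.000613, edgeR) and by 1.57 ± 0.22 with Kira8+Stattic (adjusted p = 0.00016), and its change of -0.76 ± 0.25 with Kira8 did not pass the test (adjusted p = 0.0531). Hk1, the isoform that most tissues keep at a steady level, had 185 ± 20.2 CPM (SD, n = 3) in None and 252 ± 44.7 CPM (n = 2) in Stattic and was not called against None in any of the 3 comparisons. Per kilobase of exon, Hk2 was at 1.22 to 1.95 times the Hk1 level in None and at 0.32 to 0.461 of it in the 5 libraries with Stattic.

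Among the enzymes that carry hexose phosphates to triose phosphates, Gpi1, Aldoa and Tpi1 rose in every library with Stattic. Tpi1, triose phosphate isomerase, stood at 510, 461 and 397 CPM in None, 321 and 338 CPM in Kira8, 1584 and 1136 CPM in Stattic, and 1493, 1218 and 1446 CPM in Kira8+Stattic. Its log2 change was 1.58 ± 0.18 with Stattic (adjusted p = 5.28e-05, edgeR) and 1.60 ± 0.17 with Kira8+Stattic (adjusted p = 2e-05), and its change of -0.47 ± 0.19 with Kira8 was not called. The 5 libraries with Stattic lay above the 3 None libraries, and the 2 Kira8 libraries lay below them. Stattic replicate 2, left out here, held 38068 counts of Tpi1, and with all 12 libraries the Stattic change was 2.48 ± 0.69 (adjusted p = 0.14). Aldoa, aldolase A, stood at 1057, 823 and 736 CPM in None, 991 and 870 CPM in Kira8, 2483 and 1783 CPM in Stattic, and 2134, 1758 and 2066 CPM in Kira8+Stattic. The Kira8 libraries lay within the None range, and Aldoa rose 2.45-fold with Stattic (log2 change 1.29 ± 0.20, adjusted p = 0.00038, edgeR).

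Gpi1, glucose 6-phosphate isomerase, stood at 517, 405 and 456 CPM in None, 567 and 551 CPM in Kira8, 1037 and 827 CPM in Stattic, and 917, 791 and 893 CPM in Kira8+Stattic, a log2 change of 1.02 ± 0.17 with Stattic (adjusted p = 0.000501, edgeR). The 5 libraries with Stattic were the highest, and both Kira8 libraries lay above None without passing the test. Aldoc, the aldolase isoform best known from brain, rose by a log2 change of 1.47 ± 0.27 with Stattic. Of the 3 phosphofructokinases, which make the first committed step of glycolysis, Pfkp rose with Stattic (0.78 ± 0.20, adjusted p = 0.00817), a call lost without Stattic replicate 3 (adjusted p = 0.125). Pfkl (0.01 ± 0.24) and Pfkm (0.52 ± 0.25) were not called. Pfkm had 613 to 1235 counts per library and overlaps exons of Senp1 on the other strand, which had 7103 to 13097, so its counts are uncertain where strand was not used. In all, 14 of the 38 members overlap exons of another gene.

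In the later steps, from glyceraldehyde 3-phosphate to lactate, 3 enzymes fell with Kira8: Eno1, Ldha and Pgam1. Eno1, the main enolase, had 1576, 1270 and 1226 CPM in None, 823 and 673 CPM in Kira8, 2273 and 1761 CPM in Stattic, and 1995, 1696 and 1921 CPM in Kira8+Stattic. Kira8 was the lowest group and both groups with Stattic lay above all None libraries. Eno1 fell by 0.86 ± 0.19 on the log2 scale with Kira8 (adjusted p = 0.00803, edgeR; 0.131 without Kira8 replicate 3) and rose by 0.57 ± 0.18 with Stattic (adjusted p = 0.0273), and the rise was lost under 7 of 19 alternatives, 4 of them leaving out a library (highest adjusted p 0.251). Its rise with Kira8+Stattic (0.46 ± 0.17) was lost under 9 of 19 (highest adjusted p 0.172). Ldha, the lactate dehydrogenase that turns pyruvate into lactate, had 1734, 1748 and 1541 CPM in None, 899 and 732 CPM in Kira8, 2373 and 1864 CPM in Stattic, and 2294, 1988 and 2129 CPM in Kira8+Stattic. Its level with Kira8 was 2.05-fold lower than in None (log2 change -1.04 ± 0.18, adjusted p = 0.00192, edgeR; 0.0524 without Kira8 replicate 3). With Stattic its change of 0.34 ± 0.17 was not called (adjusted p = 0.138).

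Pgam1, phosphoglycerate mutase, followed Ldha. It had 345, 393 and 366 CPM in None, 175 and 203 CPM in Kira8, 423 and 306 CPM in Stattic, and 425, 300.1 and 345 CPM in Kira8+Stattic. Kira8 lay below all other libraries (log2 change -0.96 ± 0.20, adjusted p = 0.00533, edgeR; 0.0823 without Kira8 replicate 1), and the other 3 groups overlapped. Pgk1 (0.78 ± 0.17) and Pkm (0.74 ± 0.18), phosphoglycerate kinase and a pyruvate kinase, rose with Stattic and were not called with Kira8 (-0.15 ± 0.18 and -0.28 ± 0.18). Without Stattic replicate 1 the Pkm call was lost (adjusted p = 0.0743).

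Eno2, the enolase isoform first described in neurons, rose with Kira8 while Eno1 fell. It stood at 8.95, 6.66 and 8.65 CPM in None, 37.7 and 52.6 CPM in Kira8, 6.98 and 7.38 CPM in Stattic, and 13.9, 11 and 9.29 CPM in Kira8+Stattic. Both Kira8 libraries lay far above the other 8. The level was 5.58-fold higher with Kira8 (log2 change 2.48 ± 0.23, adjusted p = 5.85e-05, edgeR) and the change with Stattic was -0.17 ± 0.23 (adjusted p = 0.584). Per kilobase of exon, Eno2 was at 0.0524 and 0.0893 of the Eno1 level in Kira8 and at 0.00351 to 0.00807 of it in the other 8 libraries, so Eno1 remained the more abundant in all 10.

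Gapdh, the glyceraldehyde 3-phosphate dehydrogenase often used as a reference gene, could not be read from its own counts alone. Of the counts on Gapdh and 41 annotated near-identical copies (at least 100 aligned bases at 98% identity or more), 92.5 to 97.7% lay on the copies. The copy with the most counts, Gm7336, a processed pseudogene, had 15260 to 57956 counts per library where Gapdh had 4038 to 13558. Summed with its copies, an alternative chosen after the data were seen, Gapdh stood at 3675, 2399 and 2324 CPM in None, 2720 and 2084 CPM in Kira8, 6026 and 4845 CPM in Stattic, and 5417, 4461 and 5635 CPM in Kira8+Stattic. All 5 libraries with Stattic lay above all 5 without it. The summed log2 change with Stattic was 0.96 ± 0.23 (adjusted p = 0.00568, edgeR), against 1.73 ± 0.34 on the gene's own counts. Against Kira8, Kira8+Stattic was called on the sum (1.11 ± 0.24, adjusted p = 0.00458) and not on the own counts (0.72 ± 0.35, adjusted p = 0.139). No other call of a member changed, and the other members with copies had at most 10.7% of the counts on them (Eno1, mostly Eno1b).

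As a group, 1 of the 16 enzymes rose and 3 fell with Kira8, and 9 rose and 1 fell with Stattic. Over all genes 9.7% rose and 9.59% fell with Kira8, and 20.1% and 18.9% with Stattic. The median log2 change of the 16 was -0.17 with Kira8 and 0.65 with Stattic, against 0 and 0.08 over all genes. The summed level of the 16 was 9036 to 10446 CPM in None, 7143 to 7958 CPM in Kira8, 14660 to 18151 CPM in Stattic and 14000 to 16375 CPM in Kira8+Stattic, so that the Kira8 libraries lay below None and those with Stattic above it.

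**Figure D2:**
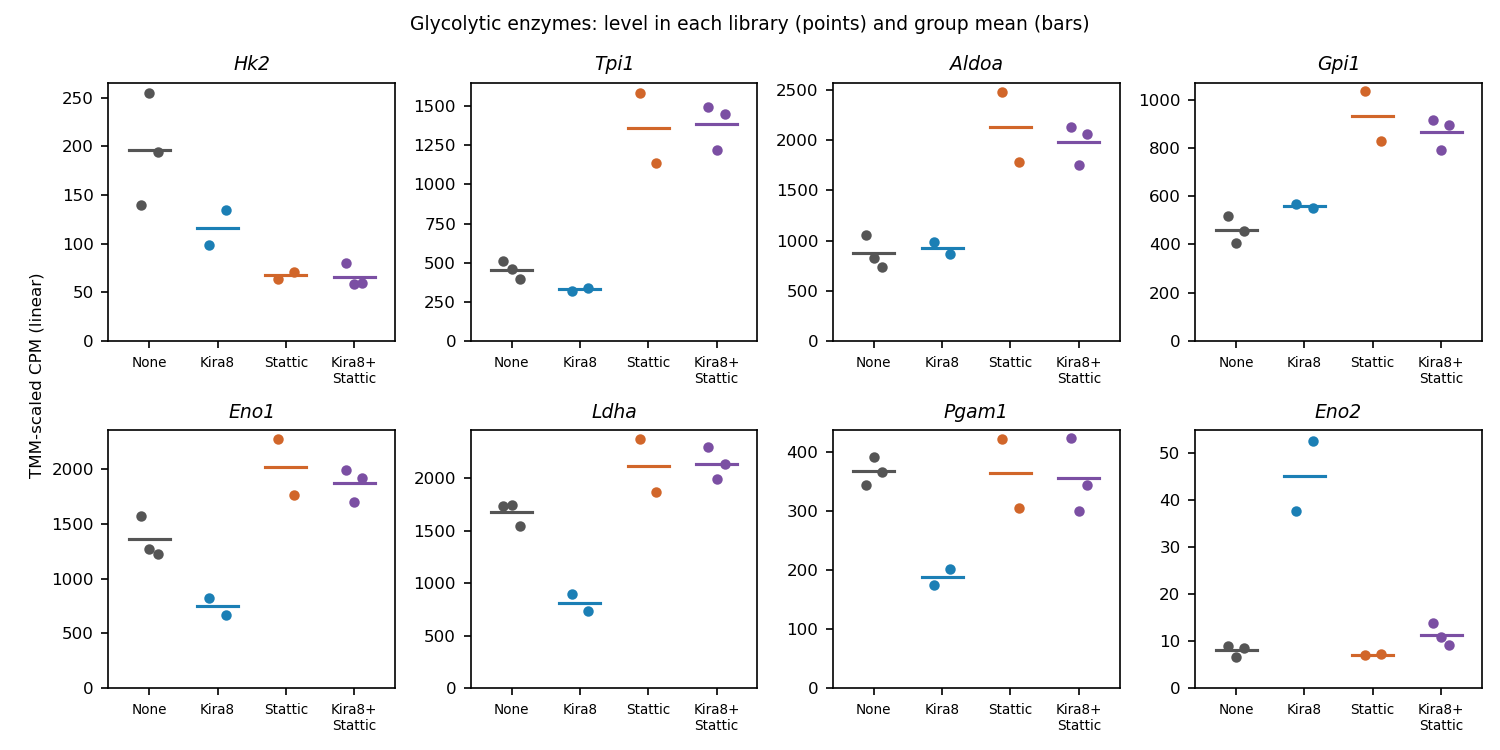
Levels in CPM (linear axes from 0) of 8 glycolytic enzymes in each of the 10 libraries, with points for libraries and bars for group means. Tpi1, Aldoa and Gpi1 are highest in the 5 libraries with Stattic, Hk2 is lowest there, Eno1, Ldha and Pgam1 are lowest in the 2 Kira8 libraries, and Eno2 is highest in them.

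The PFKFB enzymes make and break fructose 2,6-bisphosphate, the activator of phosphofructokinase. Pfkfb4 stood at 6.13, 5.28 and 4.42 CPM in None, 19 and 15.6 CPM in Kira8, 10.9 and 12 CPM in Stattic, and 14.6, 13.6 and 12.4 CPM in Kira8+Stattic. All 7 libraries with an inhibitor were above None, with log2 changes of 1.71 ± 0.20, 1.12 ± 0.20 and 1.36 ± 0.19 (adjusted p = 0.000237, 0.00101 and 0.000121, edgeR). Pfkfb3 stood at 56.7, 112 and 101 CPM in None, 82.2 and 84 CPM in Kira8, 123 and 126 CPM in Stattic, and 105, 142 and 121 CPM in Kira8+Stattic. None replicate 1 was the lowest library, both Stattic libraries lay above None, the other inhibitor groups overlapped it, and no change was called (-0.11 ± 0.24, 0.47 ± 0.24 and 0.45 ± 0.22).

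The monocarboxylate transporters MCT1 (Slc16a1) and MCT4 (Slc16a3) carry lactate across the plasma membrane, and they moved apart. Slc16a1 stood at 170, 272 and 192 CPM in None, 63.4 and 71.7 CPM in Kira8, 120 and 121 CPM in Stattic, and 120, 110 and 119 CPM in Kira8+Stattic. The order was None, then the groups with Stattic, then Kira8, with no overlap between None and any of them. It fell by 1.64 ± 0.20 with Kira8 (3.12-fold lower, adjusted p = 0.000291, edgeR), by 0.81 ± 0.19 with Stattic (adjusted p = 0.00613) and by 0.86 ± 0.17 with Kira8+Stattic (adjusted p = 0.00169), on the log2 scale. Slc16a3, a known HIF target, stood at 84, 101 and 79.3 CPM in None, 108 and 115 CPM in Kira8, 209 and 125 CPM in Stattic, and 190, 166 and 141 CPM in Kira8+Stattic. All inhibitor libraries lay above None. The change passed the test with Stattic (0.92 ± 0.21, adjusted p = 0.00489, edgeR) and Kira8+Stattic (0.91 ± 0.20, adjusted p = 0.00277), not with Kira8 (0.34 ± 0.22, adjusted p = 0.308). Without Stattic replicate 1 the Stattic change was 0.50 and was not called (adjusted p = 0.106).

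Per kilobase of exon, Slc16a3 was at 0.309 to 0.412 of the Slc16a1 level in None, at 1.34 and 1.42 times it in Kira8, and at 0.856 to 1.45 times it in the libraries with Stattic. Pdk1, the kinase that shuts the pyruvate dehydrogenase complex, stood at 57.9, 64.3 and 96 CPM in None, 49.1 and 49 CPM in Kira8, 133 and 109 CPM in Stattic, and 137, 104 and 111 CPM in Kira8+Stattic. Kira8 was the lowest group and the libraries with Stattic lay above all others. Its rise with Stattic (0.74 ± 0.21, adjusted p = 0.0165, edgeR) was lost without None replicate 2 or Stattic replicate 1 and with scaling by library size alone (highest adjusted p 0.131), and its change of -0.57 ± 0.22 with Kira8 was not called.

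**Figure D3:**
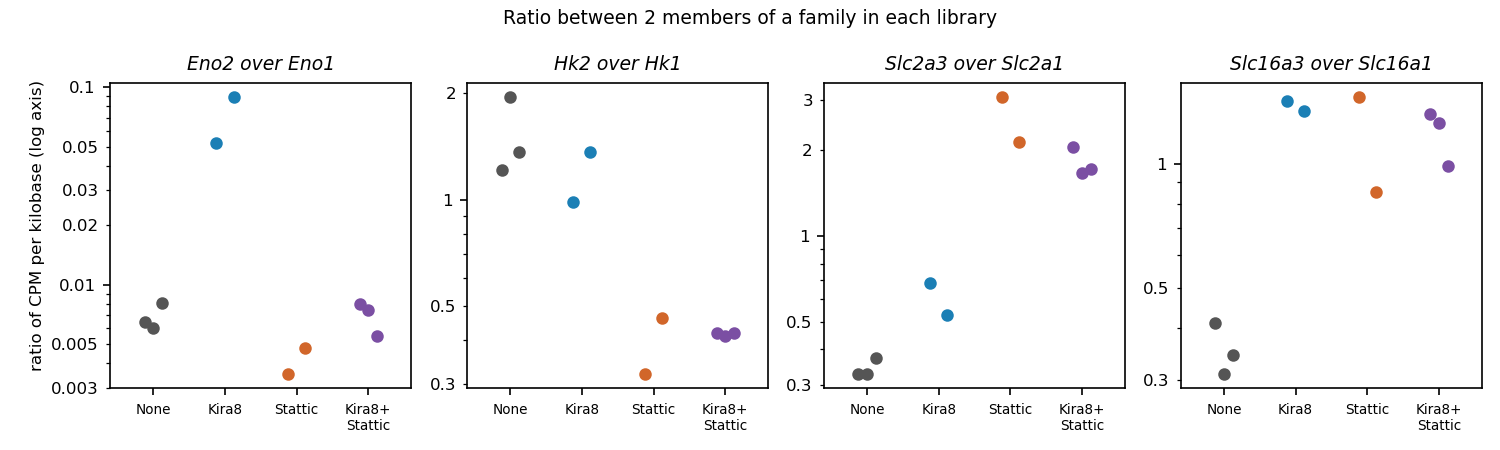
Ratio between related genes in each of the 10 libraries, from CPM per kilobase of exon, on log axes. Eno2 over Eno1 is highest in Kira8, Hk2 over Hk1 is lowest and Slc2a3 over Slc2a1 highest in the 5 libraries with Stattic, and Slc16a3 over Slc16a1 is above None in all 7 libraries with an inhibitor.

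Hif1a (mm10 chr12:73901375-73947530), which encodes the oxygen-regulated subunit of HIF-1, rose with Kira8. It stood at 1237, 1838 and 1406 CPM in None, 2431 and 2581 CPM in Kira8, 1714 and 1773 CPM in Stattic, and 1688, 1808 and 1695 CPM in Kira8+Stattic. The 2 Kira8 libraries were the highest of the 10, and the groups with Stattic lay within the None range. The change with Kira8 was 0.75 ± 0.18 (1.68-fold, adjusted p = 0.0116, edgeR), and it was not called without Kira8 replicate 1 or 3 (highest adjusted p 0.115). With Stattic it was 0.22 ± 0.18 (adjusted p = 0.35). HIF-1alpha is regulated mainly as a protein, which these data do not measure.

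Of the 12 HIF targets outside glycolysis, 11 rose and 1 fell with Stattic (20.1% and 18.9% of all genes), and the median log2 change was 1.57, against 0.08 over all genes. Vegfa (mm10 chr17:46016993-46032369), the growth factor of blood vessels, stood at 23.7, 37.8 and 25.1 CPM in None, 41.3 and 61.3 CPM in Kira8, 210 and 263 CPM in Stattic, and 256, 266 and 329 CPM in Kira8+Stattic. Each library with Stattic was above every library without it. Vegfa rose 8.2-fold with Stattic (log2 change 3.04 ± 0.24, adjusted p = 4.37e-06, edgeR) and 9.83-fold with Kira8+Stattic (3.30 ± 0.23, adjusted p = 1.27e-06). With Kira8 the change was 0.83 ± 0.23 (adjusted p = 0.0272), and 0.52 without Kira8 replicate 3 (adjusted p = 0.34); leaving out None replicate 1 or 3 also ended that call.

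Bnip3 and Bnip3l mark mitochondria for removal by autophagy. Bnip3, whose promoter is printed above, stood at 31.5, 42.6 and 33.8 CPM in None, 29.7 and 34.7 CPM in Kira8, 195 and 144 CPM in Stattic, and 174, 145 and 164 CPM in Kira8+Stattic. Kira8 overlapped None, and the libraries with Stattic lay well above both, with a log2 change of 2.23 ± 0.19 (adjusted p = 5.39e-06, edgeR). Bnip3l stood at 80.5, 69.6 and 59.4 CPM in None, 120 and 109 CPM in Kira8, 209 and 195 CPM in Stattic, and 203, 173 and 209 CPM in Kira8+Stattic. It was higher than None in all 7 libraries with an inhibitor. The change was 1.53 ± 0.16 with Stattic (adjusted p = 2.74e-05, edgeR) and 0.72 ± 0.16 with Kira8 (adjusted p = 0.00917), the latter lost without either Kira8 library (highest adjusted p 0.1).

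P4ha1 and P4ha2 encode the prolyl hydroxylases that mature collagen. P4ha2 stood at 2.22, 2.6 and 2.51 CPM in None, 3.92 and 5.91 CPM in Kira8, 21 and 16.7 CPM in Stattic, and 22, 14.1 and 19.6 CPM in Kira8+Stattic. The 3 None libraries were the lowest, Kira8 lay between, and the libraries with Stattic were the highest. It rose 7.69-fold with Stattic (2.94 ± 0.25, adjusted p = 6.78e-06, edgeR) and 2.01-fold with Kira8 (1.01 ± 0.25, adjusted p = 0.0145; 0.222 without Kira8 replicate 3, and also not called by limma voom). P4ha1 rose with Stattic (1.23 ± 0.17) and was not called with Kira8 (0.08 ± 0.17). Higd1a, a small protein of the inner mitochondrial membrane, stood at 36, 30.1 and 28.1 CPM in None, 24.6 and 24.6 CPM in Kira8, 104 and 87.1 CPM in Stattic, and 95.4, 100.5 and 118 CPM in Kira8+Stattic. Every library with Stattic lay above the others, with a log2 change of 1.61 ± 0.16 (adjusted p = 1.91e-05, edgeR), and both Kira8 libraries lay below None without passing the test (-0.35 ± 0.17, adjusted p = 0.17). Ankrd37, an ankyrin-repeat gene known as a HIF-1 target, rose with Stattic (1.97 ± 0.22) and was not called with Kira8 (-0.15 ± 0.23). Its 217 to 1264 counts per library are uncertain in the same way as those of Pfkm, since Ufsp2 on the other strand had 1341 to 2442.

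Ndrg1, a gene induced by stress and in differentiation, rose in the 3 inhibitor groups. It stood at 35.9, 76.4 and 29.3 CPM in None, 316 and 366 CPM in Kira8, 357 and 363 CPM in Stattic, and 267, 405 and 380 CPM in Kira8+Stattic. The 3 inhibitor groups overlapped and all 7 libraries lay above None. The log2 changes were 2.85 ± 0.34, 2.93 ± 0.34 and 2.89 ± 0.32 (adjusted p = 0.000235, 4.56e-05 and 2.45e-05, edgeR). Kdm3a, a histone H3 lysine 9 demethylase, stood at 83.6, 122 and 153 CPM in None, 242 and 301 CPM in Kira8, 294 and 403 CPM in Stattic, and 310, 389 and 397 CPM in Kira8+Stattic, and rose in all 3 groups (1.18 ± 0.24, 1.54 ± 0.24 and 1.61 ± 0.22). Without Kira8 replicate 3 the Kira8 call was lost (adjusted p = 0.0675).

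Egln1 and Egln3, 2 of the prolyl hydroxylases that lead HIF-alpha to degradation, moved in opposite directions with Stattic. Egln3 stood at 299.5, 338 and 287 CPM in None, 130.35 and 107 CPM in Kira8, 235 and 189.5 CPM in Stattic, and 195, 166 and 186 CPM in Kira8+Stattic. Kira8 was the lowest group and None the highest, with no overlap. Egln3 fell by 1.38 ± 0.17 with Kira8 (adjusted p = 0.00033, edgeR), by 0.54 ± 0.17 with Stattic (adjusted p = 0.0236) and by 0.76 ± 0.15 with Kira8+Stattic (adjusted p = 0.00154). The Stattic call was lost without None replicate 2 or Stattic replicate 3 and in a fit of only the groups compared (highest adjusted p 0.209). Egln1 rose with Stattic (0.70 ± 0.20, adjusted p = 0.0144), was not called with Kira8+Stattic (0.45 ± 0.18, adjusted p = 0.0639), and lost its Stattic call without Stattic replicate 1 (adjusted p = 0.185) and with scaling by library size alone.

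Mif, a cytokine made by T cells and macrophages, stood at 279.6, 222 and 200.03 CPM in None, 161 and 123 CPM in Kira8, 396 and 309.9 CPM in Stattic, and 377, 361 and 455 CPM in Kira8+Stattic. Kira8 lay below and the libraries with Stattic above None. The changes were -0.72 ± 0.20 with Kira8, 0.60 ± 0.20 with Stattic and 0.77 ± 0.18 with Kira8+Stattic (adjusted p = 0.0279, 0.0315 and 0.00472, edgeR). Leaving out None replicate 1 or either Kira8 library ended the Kira8 call (highest adjusted p 0.289), and 6 of 19 alternatives ended the Stattic call, 4 of them leaving out a library (highest adjusted p 0.244).

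**Figure D4:**
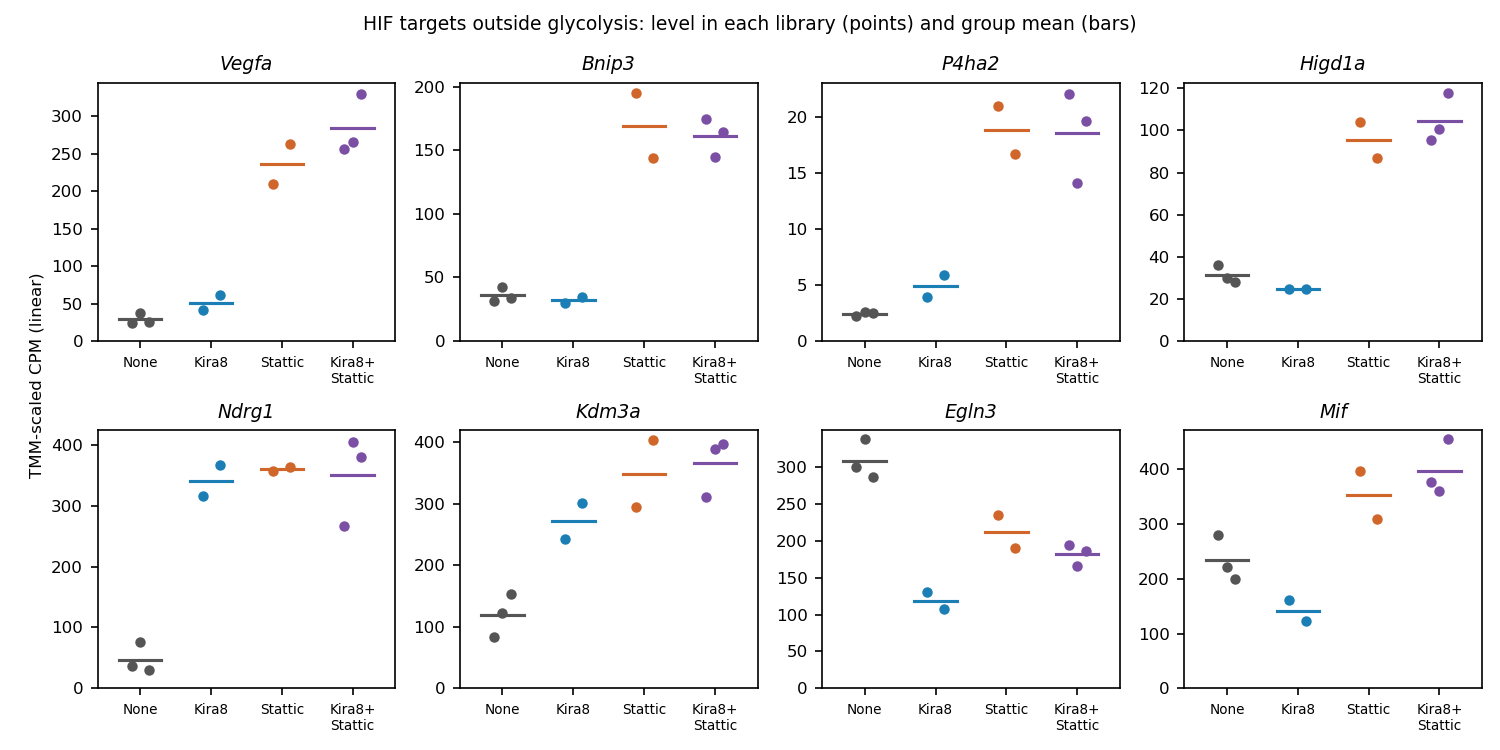
Levels in CPM (linear axes from 0) of 8 HIF targets outside glycolysis in each of the 10 libraries, with points for libraries and bars for group means. Vegfa, Bnip3, P4ha2 and Higd1a are highest in the 5 libraries with Stattic, Ndrg1 and Kdm3a are raised in all 7 libraries with an inhibitor, and Egln3 is highest in None.

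Set side by side, the HIF targets outside glycolysis had the larger median log2 change with Stattic. It was 1.57, against 0.65 for the 16 enzymes and 0.08 over all genes. Of the HIF targets 11 of 12 rose, against 9 of 16 enzymes (20.1% of all genes). These values leave out Stattic replicate 2. There the 12 HIF targets took 0.0489% of the unscaled counts, below the 0.104 to 0.117% in None. The 16 enzymes took 1.17% there, above the 0.944 to 1.15% in None. With Kira8 the medians were -0.04 for the HIF targets and -0.17 for the enzymes, against 0 over all genes. Called higher were 5 of 12 and 1 of 16 (9.7% of all genes), and lower 2 of 12 and 3 of 16 (9.59%). The summed level of the 12 was 991 to 1129 CPM in None, 1214 to 1306 CPM in Kira8, 2294 to 2402 CPM in Stattic and 2226 to 2576 CPM in Kira8+Stattic. The Kira8 sum of the HIF targets thus lay above None where that of the enzymes lay below it, but this order depended on single genes. Ndrg1 went from 35.9, 76.4 and 29.3 CPM in None to 316 and 366 CPM in Kira8, a larger rise than that of the sum. Without Ndrg1 the Kira8 sum of the HIF targets would lie below None too. Egln3 went the other way, from 299.5, 338 and 287 CPM in None to 130 and 107 CPM in Kira8. Without both genes the Kira8 sum would again lie above None. The lists are small and their members were named for their role, and whether the lists differ from each other was not tested.

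Of the glucose-sensing pair, Arrdc4 was called in all 3 comparisons against None and Txnip in 1. Arrdc4 stood at 6.38, 4.85 and 6.87 CPM in None, 18.4 and 23.7 CPM in Kira8, 12.6 and 12.1 CPM in Stattic, and 11.4, 12.7 and 13.9 CPM in Kira8+Stattic. Kira8 was the highest group, both groups with Stattic lay between it and None, and None overlapped none of them. The changes were 1.80 ± 0.21 with Kira8 (3.49-fold, adjusted p = 0.000211, edgeR), 1.03 ± 0.21 with Stattic (adjusted p = 0.00209) and 1.07 ± 0.19 with Kira8+Stattic (adjusted p = 0.000784). Txnip stood at 149, 89.9 and 143 CPM in None, 201 and 161 CPM in Kira8, 185 and 215 CPM in Stattic, and 175, 135 and 185 CPM in Kira8+Stattic. Both single-inhibitor groups lay above None, and Kira8+Stattic overlapped it. Txnip was called with Stattic (0.65 ± 0.22, adjusted p = 0.0357, edgeR), a call that 6 of 19 alternatives ended, 4 of them leaving out a library (highest adjusted p 0.197), and not with Kira8 (0.51 ± 0.22, adjusted p = 0.139).

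Txnip overlaps the exons of Gm15441 on the other strand, which had 5 to 64 counts against 5842 to 14348 for Txnip. Per kilobase of exon, Txnip averaged 40.7 CPM and Arrdc4 1.49 CPM in None, so Txnip was the more abundant of the pair. Of 8 further genes of MondoA, MLX, thioredoxin and the arrestin-domain family, 2 rose and 1 fell with Stattic and 1 fell with Kira8, near the shares over all genes (20.1%, 18.9% and 9.59%). Arrdc3 rose with Stattic from 9.56 ± 0.81 CPM (SD, n = 3) to 205 ± 60.3 CPM (n = 2), a log2 change of 4.42 ± 0.23 (adjusted p = 4.75e-07, edgeR). Arrdc3 was not called with Kira8 (0.06 ± 0.22). Mlxip, which encodes MondoA, was not called in any comparison against None (0.17 ± 0.21, -0.23 ± 0.21 and -0.32 ± 0.19), and Mlx, its partner, fell in all 3 (-0.81 ± 0.18, -0.80 ± 0.18 and -0.70 ± 0.16).

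**Figure D5:**
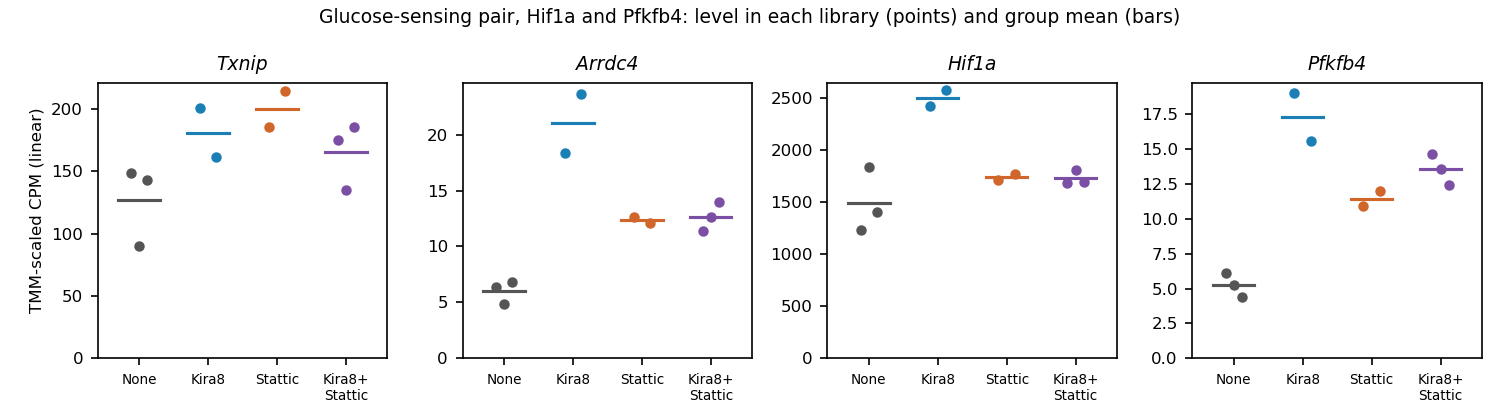
Levels in CPM (linear axes from 0) of Txnip, Arrdc4, Hif1a and Pfkfb4 in each of the 10 libraries, with points for libraries and bars for group means. Arrdc4, Hif1a and Pfkfb4 are highest in the 2 Kira8 libraries, and the groups of Txnip lie close together.

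With both inhibitors present, none of the 38 genes was told apart from Stattic alone. Against Stattic, edgeR called 0 of the 38 genes in Kira8+Stattic and 3 of all genes (0.0141%), 2 higher (0.00942%) and 1 lower (0.00471%). At an unadjusted p under 0.05 it gave 1 member, Eno2, and 874 genes. DESeq2 called 51 genes and limma voom 1. With all 12 libraries 0 members were called by edgeR, DESeq2 or limma voom with quality weights, and 0, 297 (1.01%) and 0 genes, with 1050 genes and 0 members at an unadjusted p under 0.05 in edgeR. The log2 changes of the 38 ran from -0.49 ± 0.34 (Gapdh on its own counts, -0.07 ± 0.23 with its copies) to 0.67 ± 0.23 (Eno2), and the groups did not overlap for 4 of the 38 (18.9% of all genes): Eno2, Pfkfb4, Slc16a1 and Txnip. A missed threshold does not show that the groups were equal.

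Against Kira8 alone, 24 of the 38 genes were higher with Stattic added (14.7% of all genes) and 4 lower (16%), with 30.7% of all genes called, and the median log2 change was 0.78 against 0.12 over all genes. The 4 that fell were Eno2 (-1.98 ± 0.22, adjusted p = 8.29e-05, edgeR), Hk2 (-0.82 ± 0.24, adjusted p = 0.023), Arrdc4 (-0.73 ± 0.21, adjusted p = 0.0186) and Hif1a (-0.53 ± 0.18, adjusted p = 0.0396). Eno2 kept its call in all 19 alternatives. The call of Hk2 was lost without Kira8 replicate 3 or Kira8+Stattic replicate 2 or 3 (highest adjusted p 0.233), that of Arrdc4 without Kira8 replicate 3 or Kira8+Stattic replicate 1 or 2 (highest adjusted p 0.221), and that of Hif1a under 8 of 19 alternatives, among them the loss of any library with an inhibitor (highest adjusted p 0.217). Those that rose included the enzymes Tpi1 (2.07 ± 0.20) and Ldha (1.39 ± 0.18) and the HIF targets Vegfa (2.47 ± 0.26) and Bnip3 (2.32 ± 0.20), which kept their calls in all 19 alternatives. Ndrg1 (0.04 ± 0.33) and Kdm3a (0.43 ± 0.25) were not called. With all 12 libraries edgeR called no gene in this comparison (2536 genes and 10 members at an unadjusted p under 0.05), limma voom with quality weights called 25 members higher and 2 lower (44.2% of genes called), and DESeq2 called 10 higher and 0 lower (9.41%). The groups did not overlap for 32 of the 38 genes (62.7% of all genes).

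Whether the Kira8 change depended on Stattic was tested as an interaction, the log2 change of Kira8 in the presence of Stattic minus that in its absence. It was called for 7 of the 38 genes, 3 higher (4.55% of all genes) and 4 lower (3.97%), where 8.52% of all genes were called. Without Kira8 replicate 3 or Stattic replicate 3, 1 was higher. The positive differences were those of Slc16a1 (1.59 ± 0.28), Egln3 (1.16 ± 0.24) and Ldha (1.05 ± 0.25), which fell with Kira8 alone and were not called when Kira8 was added to Stattic. The negative ones were those of Ndrg1 (-2.89 ± 0.46), Eno2 (-1.81 ± 0.32), Arrdc4 (-1.76 ± 0.29) and Pfkfb4 (-1.47 ± 0.29), which rose with Kira8 alone. With all 12 libraries edgeR called no gene here (3542 genes and 4 members at an unadjusted p under 0.05), limma voom with quality weights called 3 members in each direction (7.36% of genes called), and DESeq2 1 in each (7.54%).

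Genes around the 38 were counted from lists by role. Of 36 further HIF targets, 17 rose and 2 fell with Stattic (20.1% and 18.9% of all genes), and 10 rose and 6 fell with Kira8 (9.7% and 9.59%). Their median log2 changes were 0.77 and 0.30, against 0.08 and 0 over all genes. Hmox1, heme oxygenase 1, went from 10.1 ± 3.15 CPM (SD, n = 3) in None to 201 ± 55.9 CPM (n = 2) in Stattic (4.32 ± 0.39, adjusted p = 9.09e-06, edgeR), with 0.29 ± 0.37 under Kira8. Ddit4, an inhibitor of mTORC1, rose with Kira8 (1.54 ± 0.19) and Stattic (2.43 ± 0.20). Car12, a carbonic anhydrase, fell with both (-2.69 ± 0.27 and -3.10 ± 0.28). Mxi1, an antagonist of MYC, rose with both (0.97 ± 0.15 and 1.59 ± 0.15), and Adm, which encodes adrenomedullin, rose with Stattic (3.32 ± 0.41).

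Of 9 genes of the oxygen-sensing machinery, 4 rose and 3 fell with Stattic (20.1% and 18.9% of all genes), and 1 rose and 1 fell with Kira8, near the 9.7% and 9.59% of all genes. Cited2, which competes with HIF-1alpha for the coactivator p300, fell by 0.56 ± 0.18 with Kira8 (adjusted p = 0.0436, edgeR) and rose by 2.65 ± 0.17 with Stattic (adjusted p = 1.43e-06). Siah2, a ubiquitin ligase for prolyl hydroxylases, rose with Stattic (1.59 ± 0.18), as did Vhl (0.60 ± 0.16), the ligase subunit that marks HIF-alpha for destruction. Epas1, which encodes HIF-2alpha, rose with Stattic from 0.646 ± 0.764 CPM (SD, n = 3) to 7.39 ± 2.77 CPM (n = 2), a log2 change of 3.51 ± 0.70. Arnt, the partner of HIF-1alpha, rose with Kira8 (0.77 ± 0.16) and was not called with Stattic (0.11 ± 0.16).

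Of 21 other glycolytic isoforms and side-branch genes tested, 8 rose and 5 fell with Stattic (20.1% and 18.9% of all genes) and 3 rose and 5 fell with Kira8 (9.7% and 9.59%), with medians of -0.15 and 0 against 0.08 and 0 over all genes. Adpgk, the ADP-dependent glucokinase, fell from 127 ± 18.2 CPM (SD, n = 3) to 27.3 ± 4.1 CPM (n = 2) with Stattic (-2.22 ± 0.21, adjusted p = 1.08e-05, edgeR) and by 0.80 ± 0.19 with Kira8. Slc2a6, which encodes the transporter GLUT6, rose with Kira8 from 49.1 ± 4.01 CPM (n = 3) to 203 ± 30.4 CPM (n = 2), a log2 change of 2.05 ± 0.21, and fell with Stattic (-1.32 ± 0.22). Its interaction was -2.10 ± 0.29 (adjusted p = 0.00256, edgeR). Minpp1 (-1.28 ± 0.16 and -1.22 ± 0.16) and Tigar (-0.95 ± 0.19 and -1.18 ± 0.19), which draw on the phosphoglycerates and on fructose 2,6-bisphosphate, fell with both inhibitors, and Gpd2, the mitochondrial glycerol 3-phosphate dehydrogenase, fell with Stattic (-1.04 ± 0.22).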

How the data were processed

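Total RNA extracted with Trizol, per the labels, was sequenced in 12 libraries, and the deposited file holds whole-number read counts per gene that the authors made from the sequencing reads. The genome build was mm10 per the submitters' processing notes. The aligner, the counter, the use of strand and how reads with several matches were counted: not given in the sources used here. Libraries were grouped by their titles.

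Gene symbols, positions and exon lengths came from GENCODE M21, which matched 55141 of 55401 identifiers. The symbol Aldoa is on 2 identifiers, and the longer was used; the other had 0 to 51 counts. From the deposited counts, genes were kept by edgeR 4.0.16 (R 4.3.3) with filterByExpr defaults, scaled by TMM, and tested by glmQLFit and glmQLFTest with 1 coefficient per group, in 6 comparisons over 21239 genes, with Benjamini-Hochberg adjustment and a threshold of 0.05. A CPM is a count per 1000000 counts of the TMM-scaled library, and "per kilobase" divides it by exon length. Kira8 replicate 2 and Stattic replicate 2 were left out of the main analysis for the measures given in the report, which leaves 2 libraries in each of those groups.

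The 38 members, the role, pathway and marker lists, the left-out libraries and the alternatives were chosen with earlier results of these data known. Every member may be named; values in every library were planned for the 5 enzymes and 5 HIF targets with the smallest adjusted p against None and all members of the other roles, and up to 5 genes of each further list were named in the same way. Library values of Ldha, Eno1, Pgam1, Gapdh, Ndrg1, Kdm3a, Egln3 and Mif were added after their values were seen, as was the naming of Mlxip.

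Alternatives were DESeq2 1.42.0, limma 3.58.1 voom, other scalings and filters, a 1.5-fold minimum in the test, the replicate number as a block, fits of only the groups compared, and each library left out in turn. Sums with near-identical copies (blastn 2.17.0) were added after the data were examined. On simulated counts for Stattic against None in 10 libraries (21239 genes), edgeR recovered 50 of 100 genes changed 2-fold and 100 of 100 changed 4-fold, with 7 false calls. No pair of libraries of a group agreed within sampling noise.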

Additional observations from a re-analysis of the deposited data

Results flagged for a closer look

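For 7 of the 38 genes the Kira8 change with Stattic differed from that without it by the interaction test of edgeR. Over all genes the same test called 8.52%, with 4.55% higher and 3.97% lower. Ndrg1 had the largest difference, -2.89 ± 0.46 (SE) on the log2 scale (adjusted p = 0.00465), and ranged from -3.52 to -2.64 over its 18 alternatives in the 10 libraries. Eno2 had a difference of -1.81 ± 0.32 (adjusted p = 0.00693), lost without Kira8 replicate 3 (adjusted p = 0.0512). For Arrdc4 it was -1.76 ± 0.29 (adjusted p = 0.00562) and for Slc16a1 1.59 ± 0.28 (adjusted p = 0.00654), and both kept their call in all 18 alternatives.

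Pfkfb4 had a difference of -1.47 ± 0.29 (adjusted p = 0.0102), lost without Kira8 replicate 1 (adjusted p = 0.071). Egln3 had 1.16 ± 0.24 (adjusted p = 0.0129), lost without Kira8 replicate 3 or Stattic replicate 3 (highest adjusted p 0.0937). Ldha had 1.05 ± 0.25 (adjusted p = 0.0234), lost without Kira8 replicate 1 or 3 or Stattic replicate 3 (highest adjusted p 0.153). None of the 7 was called by edgeR with all 12 libraries.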

How the results depend on the processing

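No member's called change turned its direction under any alternative run. With all 12 libraries edgeR called 0 members in each direction in every comparison, and 0 genes for Kira8 against None, Kira8+Stattic against Kira8, Kira8+Stattic against Stattic and the interaction, 65 for Stattic against None and 57 for Kira8+Stattic against None. DESeq2 on all 12 called 1770, 3395, 2377, 1771 and 297 genes in the first 5 comparisons. Its members, higher and lower, were 2 and 4 (Kira8), 13 and 1 (Stattic), 10 and 1 (Kira8+Stattic), 10 and 0 (Kira8+Stattic against Kira8) and 1 and 1 (interaction). Voom with quality weights on all 12 gave 2 members lower in Kira8+Stattic against Kira8 and 0 genes in Kira8+Stattic against Stattic.

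In the 10 libraries, the test against a 1.5-fold change called 1359, 4865, 5018 and 2912 genes in the first 4 comparisons and 461 in the interaction. Its members were 4 higher and 3 lower (Kira8), 17 and 1 (Stattic), 17 and 1 (Kira8+Stattic), 14 and 1 (Kira8+Stattic against Kira8) and 1 and 3 (interaction). DESeq2 called 5369 genes for Kira8, with 10 members lower. For the interaction DESeq2 called 3181 genes, with 6 members higher and 7 lower. In Kira8+Stattic against Stattic it called 51 genes, where limma voom gave 1, no filter 5 and the groups compared alone 23. The filter of more than 1 CPM in 2 libraries gave 7 members lower in the interaction. Library size alone shifted the median of all genes by -0.16, -0.15 and -0.12 for Stattic and Kira8+Stattic against None and Kira8+Stattic against Kira8. The causes were not tested.

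Leaving out each of the 10 libraries gave 1642 to 4118 genes, 4 to 9 members higher and 4 to 7 lower for Kira8. The lowest were without Kira8 replicate 1 or 3. For Stattic it gave 5534 to 8649 genes, 19 to 26 and 2 to 4, and for Kira8+Stattic 6937 to 9091 genes, 22 to 24 and 3 to 3. Kira8+Stattic against Kira8 had 3270 to 7457 genes, 16 to 25 and 1 to 4. Kira8+Stattic against Stattic had 1 to 15 genes and 0 members, and the interaction 498 to 2066 genes, 1 to 4 and 3 to 5. Where a group was left with 1 library, that library is assumed to vary like the others.

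Samples with the same replicate number deviated together only weakly. The correlation of deviations was positive in all 13 such pairs (0.017 to 0.218) and over 0.1 in 2 of them. In pairs with different numbers the correlation ran from -0.151 to 0.074. Within a group of 2 libraries the deviations mirror each other, so the 13 pairs are not separate observations. The numbers were not taken as a pairing in the main fit, and whether they mark a weak pairing was not tested. With the replicate block the interaction had 5 members higher and 6 lower, and the other counts stayed within 1.5 times.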

Other observations

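Of 8 genes of the pentose phosphate pathway, which makes NADPH and ribose, 4 fell and 0 rose with Stattic by edgeR (18.9% and 20.1% of all genes), and 2 fell with Kira8 (9.59%). Rpia, ribose 5-phosphate isomerase, fell from 54.4 ± 7.03 CPM (SD, n = 3) in None to 26.8 ± 1.85 CPM (n = 2) in Kira8 and 22.7 ± 2.9 CPM (n = 2) in Stattic, log2 changes of -1.02 ± 0.18 (SE) and -1.26 ± 0.19. G6pdx, the entry enzyme, changed by -0.80 ± 0.16 with Stattic and was not called with Kira8 (-0.48 ± 0.16, adjusted p = 0.0558, edgeR).

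Of 18 genes of the citric acid cycle, 7 fell and 1 rose with Stattic (18.9% and 20.1% of all genes), and 5 fell with Kira8 (9.59%). Idh3a, a subunit of isocitrate dehydrogenase, fell from 107 ± 24.6 CPM (SD, n = 3) in None to 40.3 ± 2.16 CPM (n = 2) in Kira8 and 38.3 ± 2.15 CPM (n = 2) in Stattic. Ogdh (-1.16 ± 0.19), Dlst (-0.84 ± 0.17) and Sdha (-0.76 ± 0.17), which carry the cycle from 2-oxoglutarate to fumarate, fell with Stattic and were not called with Kira8. Of 13 genes of the pyruvate dehydrogenase complex and its control, 3 rose and 4 fell with Stattic, near the 20.1% and 18.9% of all genes. Dlat, its acetyltransferase, fell (-0.89 ± 0.18), while Mpc2, a subunit of the mitochondrial pyruvate carrier (0.68 ± 0.16), and Pdp1, the phosphatase that switches the complex on (0.69 ± 0.19), rose.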
